A study of Mus musculus with 20 samples.

Results

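Transcripts for the translation initiation factors and the cytoplasmic tRNA synthetases were followed in uteri of ovariectomized mice given estradiol (E2), bisphenol A (BPA) or HPTE. The genes were chosen by name: every non-control probe named Eif followed by any letters, without Eif2s3x and Eif2s3y, or named for a cytoplasmic synthetase, with the brightest probe standing for each gene. This gave 66 genes of the 27962 gene names on the array, from 154 of its 41174 probes, 49 with Eif names and 17 synthetases. No probe carried the name Farsa, Farsb or Vars. All 66 were well above background on every array. The series held 20 single-colour arrays, each hybridised with RNA of 1 uterus. All mice were C57bl6/J females of at least 10 weeks, rested for 10 to 14 days after ovariectomy and injected subcutaneously. Vehicle mice received 100 µl of sesame oil (3 arrays, labelled 24 h, which served as controls at both times). E2 was given at 250 ng, and BPA and HPTE at 750 µg each, with uteri taken at 2 h or 24 h. Each treated group had 3 arrays except E2 24 h, which had 2 (replicates 2 and 3). BPA is a plastics monomer and HPTE a hydroxylated metabolite of the pesticide methoxychlor. Both hold a pair of hydroxyphenyl rings joined by a carbon, which carries methyl groups in BPA and a hydrogen and a trichloromethyl group in HPTE. The model was whole uterus after removal of the ovaries, so that the animal's own ovarian estrogen was lacking.

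Protein synthesis begins when a charged initiator tRNA, the GTP-binding factor eIF2 and the small ribosomal subunit assemble at the mRNA cap. The eIF4F complex (the cap-binding eIF4E, the helicase eIF4A and the scaffold eIF4G) recruits the mRNA, eIF3 links it to the ribosome, and eIF2B reloads eIF2 with GTP. Tissues lower initiation by phosphorylating eIF2 through a family of kinases or by sequestering eIF4E with binding proteins. The aminoacyl-tRNA synthetases supply every charged tRNA. In the rodent uterus estrogen is known to raise RNA and protein synthesis ahead of growth and cell division. Because the tissue was measured in bulk, fewer cells of a type and less RNA per cell cannot be told apart.

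The promoters of 50 of the 66 genes were found in RefSeq (GRCm38.p6). Windows from 250 bases before to 50 bases after each start site were searched on both strands for TTGCATCA, a combined C/EBP and ATF element known from amino acid response genes, and for CACGTG, the E-box bound by Myc among others. TTGCATCA was present in 4 of the 50 members (8%), all of them synthetases, against 1.03% of all 27025 genes with a window. CACGTG was present in 12 of 50 (24%), against 8.09% of all genes. The GC box GGGCGG stood in 37 of 50 (74%, against 38.2%), and the palindromic estrogen response element in 0 of 50 (against 0.074%). A match describes the letters in the window and is not evidence of binding. The 4 synthetases are shown as the members with TTGCATCA, and Eif4e, Eif4g1 and Eif5a as examples of cap-complex and eIF5A genes with the E-box, which Eif4a1 and Eif5a2 also held. Each sequence runs 5′ to 3′ along the gene from 250 bases before the start site to 30 bases after it, with the motifs in capitals. In Yars the element lies on the other strand and reads TGATGCAA. The windows lie at chr8:111033592-111033871 (plus strand, Aars), chr13:49681880-49682159 (plus, Iars), chr15:11399629-11399908 (minus, Tars), chr4:129189653-129189932 (plus, Yars), chr3:138527018-138527297 (plus, Eif4e), chr16:20672477-20672756 (plus, Eif4g1) and chr11:69920601-69920880 (minus, Eif5a, 1 of its 6 listed start sites).
Aars: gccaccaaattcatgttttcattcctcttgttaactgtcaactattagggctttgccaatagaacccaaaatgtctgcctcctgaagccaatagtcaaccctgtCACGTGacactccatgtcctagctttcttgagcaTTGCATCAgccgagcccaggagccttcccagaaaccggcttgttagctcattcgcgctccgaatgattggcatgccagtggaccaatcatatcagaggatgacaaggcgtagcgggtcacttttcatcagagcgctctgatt
Iars: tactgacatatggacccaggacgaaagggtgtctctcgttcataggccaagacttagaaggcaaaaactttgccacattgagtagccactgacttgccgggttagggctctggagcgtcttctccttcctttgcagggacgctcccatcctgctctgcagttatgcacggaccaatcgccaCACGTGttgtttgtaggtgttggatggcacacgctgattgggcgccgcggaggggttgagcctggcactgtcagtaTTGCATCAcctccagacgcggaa
Tars: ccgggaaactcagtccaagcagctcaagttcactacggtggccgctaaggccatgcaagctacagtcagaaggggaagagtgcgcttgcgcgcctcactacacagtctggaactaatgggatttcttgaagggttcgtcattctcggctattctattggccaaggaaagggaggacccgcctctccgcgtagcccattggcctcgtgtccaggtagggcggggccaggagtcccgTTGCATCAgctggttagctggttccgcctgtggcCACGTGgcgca
Yars: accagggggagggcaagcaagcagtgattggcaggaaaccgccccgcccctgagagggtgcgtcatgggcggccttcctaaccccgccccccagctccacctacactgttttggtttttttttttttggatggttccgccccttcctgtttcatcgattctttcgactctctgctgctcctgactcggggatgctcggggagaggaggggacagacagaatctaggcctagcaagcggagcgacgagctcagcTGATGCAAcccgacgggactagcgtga
Eif4e: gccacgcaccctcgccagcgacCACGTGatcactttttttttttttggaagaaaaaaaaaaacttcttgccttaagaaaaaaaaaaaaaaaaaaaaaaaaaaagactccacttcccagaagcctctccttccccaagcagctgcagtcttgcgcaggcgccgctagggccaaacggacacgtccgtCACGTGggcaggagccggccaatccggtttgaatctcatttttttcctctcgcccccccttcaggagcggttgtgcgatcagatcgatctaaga
Eif4g1: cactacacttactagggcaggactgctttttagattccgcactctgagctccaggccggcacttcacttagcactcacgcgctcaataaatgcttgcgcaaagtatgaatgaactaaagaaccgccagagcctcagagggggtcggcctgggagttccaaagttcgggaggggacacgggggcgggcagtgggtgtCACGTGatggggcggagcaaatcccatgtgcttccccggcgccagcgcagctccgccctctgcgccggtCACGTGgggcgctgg
Eif5a: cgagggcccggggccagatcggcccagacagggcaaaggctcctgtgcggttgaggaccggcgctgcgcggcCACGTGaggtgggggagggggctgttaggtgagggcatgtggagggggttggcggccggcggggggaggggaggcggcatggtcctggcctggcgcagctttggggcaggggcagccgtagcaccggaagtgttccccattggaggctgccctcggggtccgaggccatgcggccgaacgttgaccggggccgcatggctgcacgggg

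Counted from the start site, the E-box of Aars began at -146 and TTGCATCA at -112. In Iars the E-box began at -69 and TTGCATCA at 8, and TTGCATCA began at -15 in Tars and at 4 in Yars. Of the 4 genes, Aars was the only one called higher by both xenoestrogens at 2 h without a call for E2. All 4 were called higher for E2 at 24 h, but so were all 17 synthetases, with or without the element (all probes 26.3%).

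Some arrays stood apart in transcripts of other cell types. The summed intensity of 8 pancreatic transcripts (Cpa1, Ctrc, Pnlip and others, which encode digestive enzymes) was at most 9.47 on the log2 scale in vehicle, BPA and HPTE uteri, and 21.9 on E2 2 h replicate 2, 18.18 on E2 2 h replicate 3, 13.08 on E2 24 h replicate 2 and 14.5 on E2 24 h replicate 3. Transcripts of sperm cells (8 markers, log2 sum) ran from 15.78 to 17.53 in vehicle uteri, from 9.1 to 11.36 after E2, from 12.45 to 14.5 after BPA and from 11.19 to 13.36 after HPTE, so that all treated groups lay below vehicle. Lymphocyte markers (7) summed to between 13.39 and 16.01 in the BPA 2 h group, against 13.11 to 13.4 in vehicle. They also lay above vehicle in all BPA 24 h uteri (13.70 to 14.72) and on HPTE 24 h replicate 1 (14.25). The uterine markers Esr1, Pgr, Hoxa10 and Hoxa11 were above background on every array. Their log2 sum was lower in all treated groups than in vehicle (15.84 to 16.10). At 2 h it was 15.19 to 15.64 after E2, 14.50 to 15.50 after BPA and 14.66 to 15.32 after HPTE. Epithelial markers (4 of 4 above background on all arrays) summed to 16.85 to 17.07 in vehicle and 17.79 to 18.01 after E2 at 24 h, and stromal markers (3 of 3) to 16.96 to 17.12 and 18.37 to 18.51. The xenoestrogens moved both in the same direction at 24 h, with epithelial sums of 17.32 to 17.46 after BPA and 17.64 to 17.77 after HPTE and stromal sums of 17.36 to 18.03 and 18.10 to 18.23. At 2 h epithelial sums were below vehicle after BPA (16.02 to 16.68) and HPTE (16.61 to 16.80), and stromal sums after HPTE (16.19 to 16.43). Smooth muscle markers were above vehicle (18.2 to 18.4) in all 24 h groups, at 18.8 to 18.9 after E2. After E2 at 24 h fat (14.70 to 15.03, against 16.03 to 17.20) and myeloid markers (16.48 to 16.53, against 17.09 to 17.31) were lower than in vehicle. The part of these cell types in the results was not tested. Each p-value rested on the spread between uteri within groups, pooled over the 7 groups.

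At 24 h E2 raised most of the translation genes, and the xenoestrogens did so for few of them. After E2 at 24 h, 45 of the 66 were higher and 8 lower than in vehicle, where 26.3% and 37.6% of all 32456 tested probes were called higher and lower (limma, Benjamini-Hochberg adjusted p under 0.05, as in all calls that follow). The median change of the members was 0.64 on the log2 scale, against -0.15 for all probes. BPA at 24 h raised 9 and lowered 1 (all probes 5.09% and 8.03%), and HPTE at 24 h raised 17 and lowered 5 (14.9% and 19.1%). The members' medians were -0.01 and 0.08.

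At 2 h the order was different. BPA raised 29 members and lowered 11 (all probes 19.3% and 30.2%), HPTE raised 33 and lowered 8 (19.9% and 28.2%), and E2 raised 17 and lowered 1 (11.1% and 17.0%). The members' medians were 0.17, 0.19 and 0.08, against -0.10, -0.09 and -0.06 for all probes. All of these comparisons share the same 3 vehicle arrays. The E2 2 h group held the arrays with the highest pancreatic sums, and without its replicates 2 and 3, 10 members were called. The direction of these counts also rested on the scaling. Without scaling, 3 members were called higher and 7 lower after E2 at 2 h, 0 and 1 after BPA at 24 h and 7 and 7 after HPTE at 24 h, whereas scaling to the spike-in probes left 28 higher and 2 lower for E2 at 24 h, 6 and 0 for BPA at 2 h and 8 and 0 for HPTE at 2 h.

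**Figure D1:**
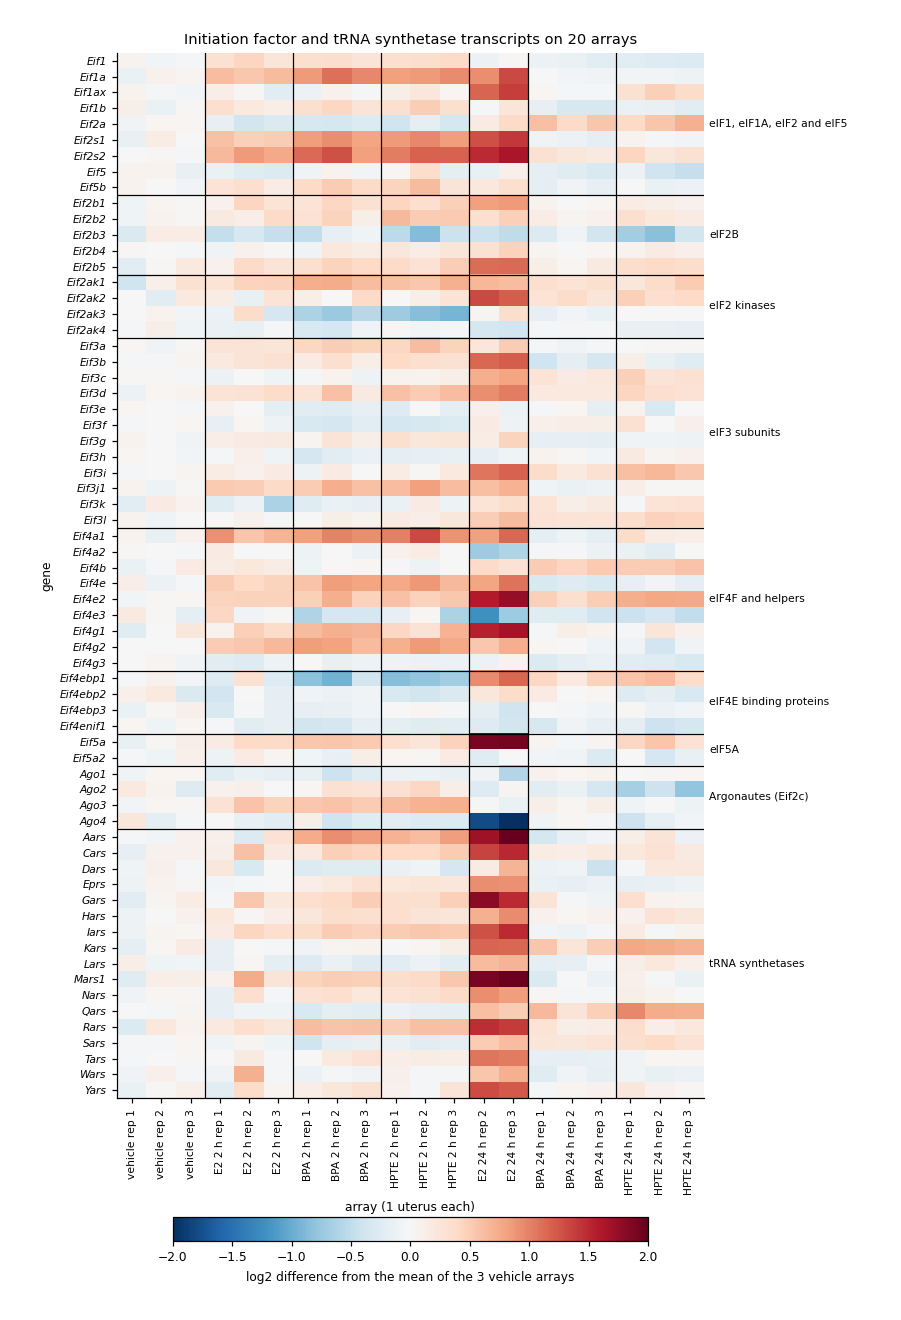
Level of each of the 66 genes (rows, by role) on each of the 20 arrays (columns, by group), as the log2 difference from the mean of the 3 vehicle arrays. Colours end at 2 in both directions. The 2 E2 24 h arrays carry the strongest increases, among the 17 synthetases and in Eif5a, Eif4e2, Eif4g1 and Eif2s2, with Ago4 the strongest decrease.

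The tRNA synthetases, which attach each amino acid to its tRNA, were the group with the most uniform response to E2 on the brightest probes. On these, all 17 were called higher at 24 h, against 26.3% of all probes. The changes ran from 0.43 (Dars) to 1.93 (Mars1), with a median of 1.05 on the log2 scale. Further probes of Dars, Hars, Iars and Qars were called lower after E2 at 24 h (Iars -0.30, Qars -0.55). Probes of Aars on cDNA clones had no call there. The median of the 17 relative to vehicle was 1.06 and 1.04 on the 2 E2 24 h arrays and lay between -0.09 and 0.05 on the vehicle arrays. At 2 h E2 raised 1 of them (all probes 11.1%). This was Iars, by 0.31 (SE 0.085), a call that did not hold when E2 2 h replicate 2 or vehicle replicate 1 was removed. BPA at 2 h raised 9 and lowered 3 (19.3% and 30.2%), and HPTE raised 9 and lowered 1 (19.9% and 28.2%). At 24 h BPA and HPTE each raised 3: Qars, Kars and Sars (all probes 5.09% and 14.9%). The HPTE count lay near the share of all probes. The BPA 24 h and HPTE 24 h array medians lay between -0.03 and 0.13.

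Methionyl-tRNA synthetase (Mars1), which also charges the initiator tRNA, had levels of 10.92, 11.30 and 11.28 in vehicle (log2 intensity scaled to a common 75th percentile) and 13.07 and 13.13 in the E2 24 h uteri. The groups did not overlap, and the change was 3.82-fold (log2 1.93, SE 0.162, adjusted p 1e-07). On the E2 2 h arrays it read 11.25, 11.92 and 11.43, of which the highest belonged to replicate 2, the array with the highest pancreatic sum. After BPA at 2 h it read 11.61, 11.66 and 11.65 (log2 change 0.47, adjusted p 0.0141), and after HPTE at 2 h 11.52, 11.54 and 11.71 (0.42, adjusted p 0.0251), all above vehicle. Both calls were lost without vehicle replicate 1 (0.35, adjusted p 0.0768, and 0.30, adjusted p 0.126), and the HPTE call also without HPTE 2 h replicate 3. By 24 h the BPA (10.88 to 11.17) and HPTE (11.03 to 11.26) arrays overlapped vehicle.

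On its brightest probe, alanyl-tRNA synthetase (Aars) separated the compounds at the early time. Its vehicle levels were 12.60, 12.57 and 12.70. The E2 2 h arrays, at 12.72, 12.35 and 12.91, straddled vehicle, whereas the BPA 2 h arrays read 13.37, 13.56 and 13.46 and the HPTE 2 h arrays 13.33, 13.24 and 13.45. The 12.35 came from E2 2 h replicate 2, the array with the highest pancreatic sum, and replicates 1 and 3 lay above all vehicle arrays. BPA and HPTE arrays did not overlap vehicle or E2 at 2 h. The change from vehicle was 0.84 (SE 0.138, adjusted p 0.000158) for BPA and 0.72 (adjusted p 0.000518) for HPTE, against 0.04 (adjusted p 0.888) for E2. At doses that differed, BPA exceeded E2 by 0.80 (adjusted p 0.00156) and HPTE exceeded E2 by 0.68 (adjusted p 0.00396). At 24 h the order was reversed: E2 arrays read 14.32 and 14.65 (3.64-fold, log2 1.86, SE 0.154, adjusted p 8.54e-08), and BPA (12.27, 12.47 and 12.56) and HPTE (12.74, 12.88 and 12.51) lay near vehicle. A dimmer RefSeq probe of Aars gave 0.25, 1.05 and 0.75 at 2 h for E2, BPA and HPTE and 2.30 for E2 at 24 h. Its probes on cDNA clones were all called higher at 2 h after E2 as well, with values given with the other observations.

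Glycyl-tRNA synthetase (Gars) read 9.72, 9.99 and 10.09 in vehicle and 11.74 and 11.43 after E2 at 24 h (3.15-fold, log2 1.65, adjusted p 5.05e-07). Isoleucyl-tRNA synthetase (Iars) read 12.41, 12.55 and 12.54 in vehicle and 13.77 and 14.00 after E2 at 24 h (2.61-fold, log2 1.38, adjusted p 1.64e-08). Both were also higher after BPA and HPTE at 2 h, by 0.41 and 0.38 for Gars and by 0.45 and 0.52 for Iars. A dimmer Iars probe, on a cDNA clone, gave -0.30 for E2 at 24 h and was called lower. The Gars calls at 2 h were lost when any of 3 arrays (BPA) or 11 arrays (HPTE) was left out. Eprs, which joins glutamyl- and prolyl-tRNA synthetase in a protein, rose by 0.92 after E2 at 24 h, with BPA 0.21 and HPTE 0.23 at 2 h. Asparaginyl-tRNA synthetase (Nars) rose by 0.88, leucyl-tRNA synthetase (Lars) by 0.66 and tryptophanyl-tRNA synthetase (Wars) by 0.63 after E2 at 24 h. On E2 2 h replicate 2, Wars read 13.02, against 12.18 to 12.41 on all other 2 h and vehicle arrays.

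Glutaminyl- and lysyl-tRNA synthetase followed another course, in which the late xenoestrogen arrays were also high. Qars read 14.55, 14.51 and 14.61 in vehicle, 15.15 and 15.05 after E2 at 24 h, 15.20, 14.82 and 15.02 after BPA at 24 h and 15.51, 15.30 and 15.28 after HPTE at 24 h. All 3 treated groups lay above vehicle, and HPTE above BPA. The changes were 0.55, 0.46 and 0.81, all called, and the excess of HPTE over BPA was 0.35 (SE 0.090, adjusted p 0.0437). A dimmer RefSeq probe of Qars gave 0.75, 0.76 and 1.02, and a clone probe -0.55, -0.08 and -0.08. Kars read 12.89, 13.13 and 13.25 in vehicle, 14.26 and 14.25 after E2, 13.65, 13.34 and 13.58 after BPA and 13.86, 13.83 and 13.79 after HPTE (changes 1.16, 0.43 and 0.74, of which the BPA call was lost without BPA 24 h replicate 1). Seryl-tRNA synthetase (Sars) rose by 0.56, 0.25 and 0.34 at 24 h, after changes of -0.24 (BPA) and -0.18 (HPTE) at 2 h. The late BPA call of Sars was lost without any of 5 arrays, the early HPTE call without any of 15 and the early BPA call without BPA 2 h replicate 1.

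Both E2 24 h arrays had higher pancreatic sums than vehicle, and the part of pancreatic RNA in the synthetase values was not tested. On E2 2 h replicate 3, whose pancreatic sum of 18.18 was above those of both E2 24 h arrays (13.08 and 14.5), the median synthetase difference from vehicle was 0.01. On E2 2 h replicate 1, with a sum of 8.82, it was -0.04, and on replicate 2, with 21.9, it was 0.18. Within the slide that held both vehicle replicate 3 and E2 24 h replicate 3, all 17 synthetases were higher in the E2 uterus, with a median difference of 0.99.

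**Figure D2:**
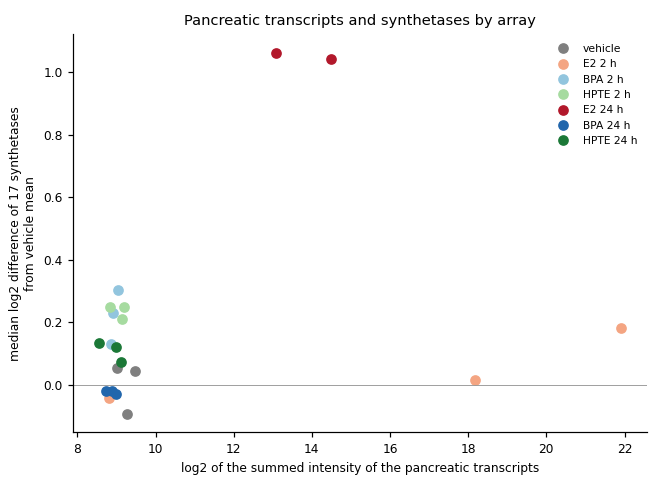
Median log2 difference of the 17 synthetases from the vehicle mean (vertical axis) against the log2 summed intensity of 8 pancreatic transcripts (horizontal axis), with 1 point for each of the 20 arrays. The E2 24 h arrays stand at 1.06 and 1.04 on the vertical axis, and the E2 2 h arrays with the highest pancreatic sums at 0.01 and 0.18.

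The factors that carry and place the initiator tRNA (eIF1, eIF1A, eIF2 and eIF5, 9 genes) answered early to all 3 compounds. At 2 h E2 raised 5 and lowered 1 (all probes 11.1% and 17.0%). BPA raised 6 and lowered 1 (19.3% and 30.2%) and HPTE raised 6 and lowered 1 (19.9% and 28.2%). E2 at 24 h raised 6 (26.3%). Eif2s2, the beta subunit of eIF2, read 13.72, 13.75 and 13.68 in vehicle, 14.36, 14.57 and 14.47 after E2 at 2 h, 14.84, 14.99 and 14.53 after BPA and 14.73, 14.90 and 14.90 after HPTE. No treated array overlapped vehicle. The changes were 0.75 (SE 0.103, adjusted p 6.61e-05), 1.07 (adjusted p 1.32e-06) and 1.13 (adjusted p 6.85e-07). E2 arrays at 24 h reached 15.20 and 15.34 (2.94-fold, log2 1.56), while BPA (13.90 to 14.01) and HPTE (13.94 to 14.14) had come back towards vehicle (0.23, adjusted p 0.152, and 0.32, adjusted p 0.0261, the latter lost without any of 4 arrays). Another RefSeq probe of Eif2s2 gave 0.34, 0.46 and 0.63 at 2 h and 0.82 for E2 at 24 h. Its probe on a cDNA clone went the other way at 24 h, at -0.78 (E2), -0.88 (BPA) and -0.84 (HPTE), all called.

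Eif2s1, the alpha subunit that the eIF2 kinases phosphorylate, read 12.24, 12.54 and 12.39 in vehicle. At 2 h it read 12.97, 12.86 and 12.89 after E2, 13.23, 13.32 and 13.17 after BPA and 13.24, 13.35 and 13.22 after HPTE. The E2 arrays lay above vehicle and the xenoestrogen arrays above E2, with changes of 0.52, 0.86 and 0.88, all called. BPA exceeded E2 by 0.34 (adjusted p 0.00964) and HPTE exceeded E2 by 0.36 (adjusted p 0.00629), at doses that differed. At 24 h E2 kept a 2.54-fold increase (13.67 and 13.79), and BPA (12.21 to 12.32) and HPTE (12.32 to 12.45) overlapped vehicle. Eif1a, which helps place the initiator tRNA at the start codon, had the same order at 2 h (0.60, 0.97 and 0.87, all called) and changes of 1.12 for E2, -0.04 for BPA and -0.07 for HPTE at 24 h.

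Its X-linked relative Eif1ax, named Eif1ay on the array, did not follow. It read 13.88, 13.79 and 13.77 in vehicle and 13.59 to 14.04 over the 9 treated arrays at 2 h, which overlapped vehicle (changes -0.02, -0.02 and 0.13, adjusted p 0.907, 0.905 and 0.279). At 24 h it was 14.98 and 15.20 after E2 (log2 1.28, adjusted p 8.55e-08), 13.77 to 13.86 after BPA and 14.12, 14.30 and 14.18 after HPTE (0.39, adjusted p 0.00557). A dimmer RefSeq probe of Eif1ax gave 0.22 for E2 and -0.17 for HPTE at 24 h, so the HPTE value differed in sign between the probes. The brightest probe of Eif2a, which can deliver the initiator tRNA without eIF2, fell at 2 h under all 3 compounds (-0.28, -0.31 and -0.31, all called) and rose under all 3 at 24 h (0.27, 0.51 and 0.55, all called). Its probe on a cDNA clone gave the opposite signs, none called, at 0.05, 0.09 and 0.20 at 2 h and -0.33, -0.12 and -0.08 at 24 h, and the mean of the probes was -0.03 for E2 at 24 h. The E2 calls were lost without any of 6 arrays at 2 h and 2 arrays at 24 h, and the HPTE call at 2 h without HPTE 2 h replicate 1. The brightest probe of Eif5, the GTPase activator of eIF2, had no call (changes from -0.32 to 0.06, of which the largest had an adjusted p of 0.0597). Its probe on a cDNA clone gave 0.52 after E2 and 0.50 after BPA at 2 h, both called.

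The guanine nucleotide exchange factor eIF2B has 5 subunits. E2 at 24 h raised 4 of them (all probes 26.3%), with Eif2b5, the catalytic subunit, highest (11.18, 11.42 and 11.58 in vehicle, 12.51 and 12.53 after E2, 2.18-fold). BPA raised 3 and HPTE 4 at 2 h, and E2 raised 1 (all probes 19.3%, 19.9% and 11.1%). Eif2b2 rose by 0.56 after HPTE (15.01, 14.88 and 14.90 against 14.28, 14.44 and 14.39 in vehicle) and by 0.28 after BPA (14.66, 14.81 and 14.49). The BPA call was lost without vehicle replicate 1 or BPA 2 h replicate 2. Eif2b3 was the exception, with called decreases after E2 at 24 h (-0.47), HPTE at 2 h (-0.61) and HPTE at 24 h (-0.63). The E2 call was lost without any of 4 arrays, and the value was 0.05 with normexp correction and 0.06 with quantile scaling. Its only probe was dim, at 5.27 to 6.29 on all arrays, and lies on a cDNA clone rather than a RefSeq transcript.

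The eIF2 kinases, which shut initiation down under stress, moved in different directions. Eif2ak3, the kinase PERK of the endoplasmic reticulum, read 10.15, 10.24 and 10.11 in vehicle. It fell to 9.54, 9.43 and 9.61 after BPA at 2 h (-0.64, SE 0.135, adjusted p 0.00114) and to 9.46, 9.32 and 9.24 after HPTE at 2 h (-0.83, adjusted p 0.000125). E2 2 h arrays read 10.05, 10.53 and 9.83, on both sides of vehicle, and the 10.53 came from replicate 2 with the highest pancreatic sum. HPTE lay below E2 by 0.80 (adjusted p 0.00123) and BPA by 0.61 (adjusted p 0.00669). At 24 h all 3 groups were near vehicle (0.21 for E2 and -0.12 for BPA, none of the 3 called). Eif2ak2, the interferon-inducible kinase PKR, rose after E2 at 24 h (log2 1.26, adjusted p 2.01e-06), and Eif2ak1, the heme-regulated kinase, rose by 0.39, 0.69 and 0.61 at 2 h. Eif2ak4, the kinase GCN2 that senses uncharged tRNA, fell by 0.37 after E2 at 24 h.

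**Figure D3:**
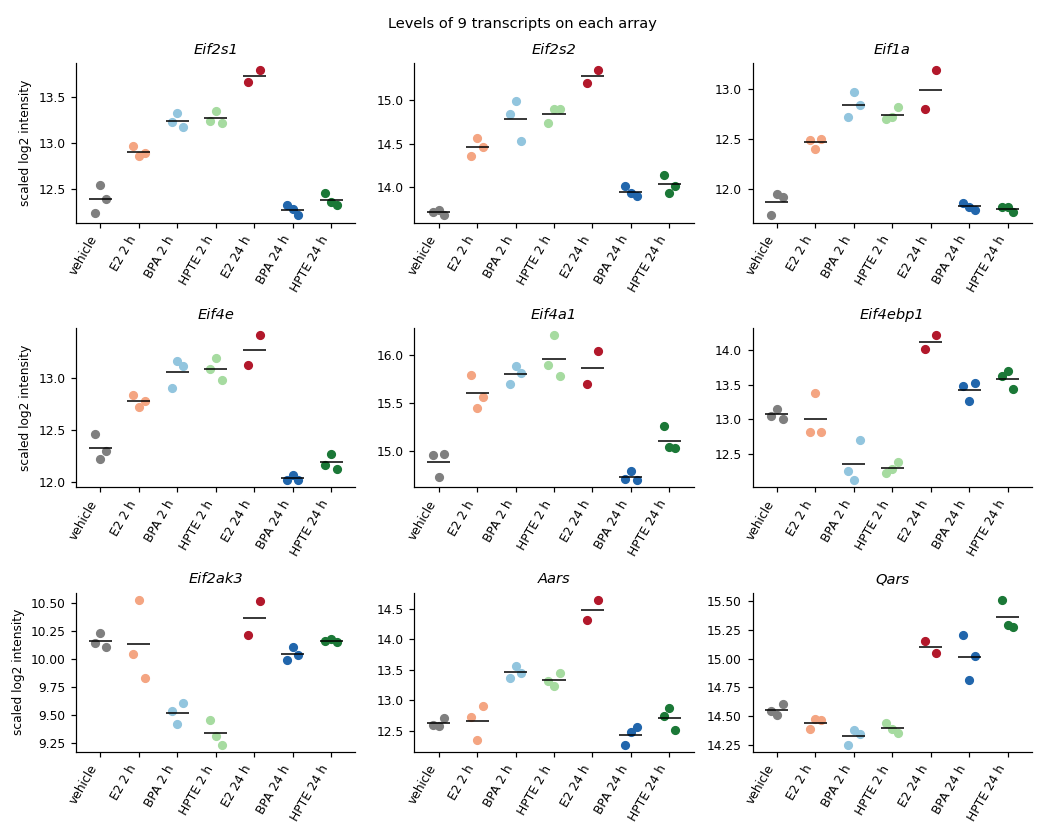
Levels (log2 intensity scaled to a common 75th percentile) of 9 genes (brightest probes) on each array, with group means as bars. Eif2s1, Eif2s2, Eif1a, Eif4e and Eif4a1 are above vehicle in all 2 h groups and stay up at 24 h after E2. Eif4ebp1 and Eif2ak3 are below vehicle after BPA and HPTE at 2 h, Aars is above vehicle at 2 h after BPA and HPTE, and Qars is above vehicle in all 24 h groups.

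Of the 12 subunits of eIF3, the scaffold that holds the mRNA to the small ribosomal subunit, E2 at 24 h raised 8 (all probes 26.3%). Their median change was 0.46 on the log2 scale over the 12, and the other 4 were not called. Eif3b, named Eif3s9 on the array, read 14.71, 14.73 and 14.81 in vehicle and 15.90 and 15.96 after E2 at 24 h (2.27-fold, log2 1.18, adjusted p 1.29e-07). After BPA at 24 h it read 14.34, 14.56 and 14.42, below vehicle (-0.31, adjusted p 0.0371). Eif3b was thus called in opposite directions under E2 and BPA at 24 h, but the BPA call was lost when any of 5 arrays was left out, and another RefSeq probe gave 0.08 for BPA and 1.66 for E2. Eif3i read 12.46, 12.49 and 12.55 in vehicle, 13.57 and 13.68 after E2 at 24 h, 12.86, 12.70 and 12.81 after BPA and 13.10, 13.17 and 13.04 after HPTE. The 3 treated groups did not overlap vehicle or each other, and the changes were 1.12, 0.29 and 0.60. The BPA call of Eif3i was lost without any of 4 arrays.

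At 2 h the eIF3 subunits moved less. E2 raised 3 (25%, against 11.1% of all probes), BPA raised 3 and lowered 2 (25% and 16.7%, against 19.3% and 30.2%), and HPTE raised 6 and lowered 1 (50% and 8.33%, against 19.9% and 28.2%). The BPA share of increases was near that of all probes. Eif3j1 led these increases, by 0.46, 0.61 and 0.68, but its near-identical copy Eif3j2 may be read by the same probe. Eif3a, the largest subunit, rose by 0.25, 0.45 and 0.49, and Eif3f fell by 0.29 after BPA and by 0.31 after HPTE.

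The cap-binding complex eIF4F and its helpers (9 genes) held some of the earliest changes. E2 raised 4 at 2 h, BPA raised 5 and HPTE raised 5 (all probes 11.1%, 19.3% and 19.9%). E2 at 24 h raised 6 and lowered 2 (26.3% and 37.6%). BPA at 24 h raised 2 (5.09%), and HPTE raised 2 and lowered 1 (14.9% and 19.1%). With 9 genes, the HPTE counts at 24 h lay near the shares of all probes. The median of the 9 relative to vehicle lay between 0.29 and 0.71 on all 9 treated arrays at 2 h, at 0.55 and 0.73 on the E2 24 h arrays and between -0.12 and 0.01 on the xenoestrogen arrays at 24 h.

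Eif4a1, the helicase that unwinds the mRNA leader, read 14.95, 14.73 and 14.97 in vehicle. At 2 h it read 15.79, 15.44 and 15.56 after E2, 15.70, 15.88 and 15.82 after BPA and 15.89, 16.21 and 15.78 after HPTE. Every treated array was above every vehicle array, with changes of 0.71 (SE 0.137, adjusted p 0.00062), 0.91 (adjusted p 3.64e-05) and 1.08 (adjusted p 6.93e-06). At 24 h E2 still read 15.70 and 16.04 (log2 0.98), while BPA (-0.16) and HPTE (0.22) had no call. Its paralog Eif4a2 went the other way after E2 at 24 h, from 15.47, 15.45 and 15.42 in vehicle to 14.73 and 14.84 (-0.66, adjusted p 5.61e-06).

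Eif4e, the cap-binding protein itself, read 12.46, 12.22 and 12.30 in vehicle. At 2 h E2 arrays read 12.83, 12.72 and 12.78, BPA arrays 12.90, 13.17 and 13.11 and HPTE arrays 13.09, 13.19 and 12.98. All were above vehicle, and both xenoestrogens were above E2. The changes were 0.45 (adjusted p 0.00237), 0.73 (adjusted p 1.97e-05) and 0.76 (adjusted p 1.16e-05). The excess over E2, at doses that differed, was 0.28 for BPA (adjusted p 0.0497, lost without any of 16 arrays) and 0.31 for HPTE (adjusted p 0.0376, lost without any of 7). At 24 h E2 reached 13.12 and 13.41 (1.91-fold), and BPA (-0.29, adjusted p 0.0557) and HPTE (-0.14) had no call. The dimmer Eif4e probe, on a cDNA clone, gave -0.095 for BPA over E2 at 2 h and -0.26 for E2 at 24 h, neither called.

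The scaffold Eif4g1 read 12.06, 12.31 and 12.52 in vehicle and 13.85 and 13.96 after E2 at 24 h (3.05-fold, log2 1.61, adjusted p 2.22e-07). At 2 h it rose by 0.67 after BPA and 0.47 after HPTE, and by 0.31 without a call after E2 (adjusted p 0.0937). Eif4g2, a relative that lacks the eIF4E-binding part, rose by 0.56, 0.76 and 0.78 at 2 h. Eif4e2, a cap-binding homolog that represses translation, read 11.59, 11.67 and 11.69 in vehicle, 13.23 and 13.40 after E2 at 24 h (3.18-fold, log2 1.67), 12.12, 11.99 and 12.14 after BPA and 12.38, 12.42 and 12.41 after HPTE. All 24 h groups lay above vehicle in the order BPA, HPTE, E2 with no overlap. The 3 other RefSeq probes of Eif4e2 disagreed at E2 24 h, at 1.62, 0.21 and -0.87, of which the first and the last were called. Eif4e3, another homolog, fell from 11.99, 11.82 and 11.60 to 10.58 and 11.09 after E2 at 24 h (-0.97, adjusted p 0.00053), and Eif4b, a helicase cofactor, rose by 0.34, 0.49 and 0.52 at 24 h, with -0.13, 0.36 and 0.24 on another probe.

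**Figure D4:**
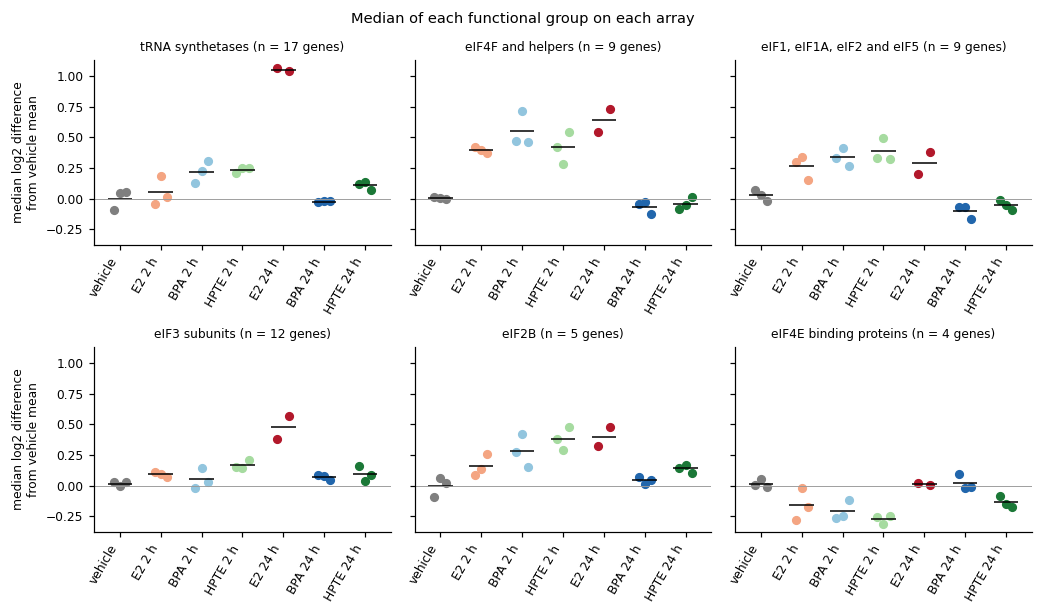
Median log2 difference from the vehicle mean over the genes of each role group (panels) on each of the 20 arrays (points, by group along the horizontal axis). The synthetases stand at 1.06 and 1.04 on the E2 24 h arrays, and the eIF4F genes between 0.29 and 0.71 on all 2 h arrays of the 3 compounds.

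Eif4ebp1, the inhibitor that holds eIF4E away from eIF4G, was lower after the xenoestrogens at 2 h. It read 13.05, 13.15 and 13.01 in vehicle, 12.25, 12.12 and 12.70 after BPA (-0.72, SE 0.185, adjusted p 0.00172) and 12.22, 12.28 and 12.38 after HPTE (-0.77, adjusted p 0.000896). The E2 2 h arrays, at 12.82, 13.38 and 12.81, lay on both sides of vehicle (-0.07, adjusted p 0.808), with the highest value again on replicate 2. BPA was below E2 by 0.65 (adjusted p 0.012, lost without BPA 2 h replicate 1 or 2) and HPTE by 0.71 (adjusted p 0.00747). Another RefSeq probe gave -0.37, -1.12 and -1.27 at 2 h, of which the last pair were called. At 24 h Eif4ebp1 stood above vehicle, at 14.02 and 14.22 after E2 (log2 1.05, adjusted p 0.000102), 13.48, 13.26 and 13.53 after BPA (0.35, adjusted p 0.164) and 13.62, 13.69 and 13.44 after HPTE (0.52, adjusted p 0.0215, lost without any of 4 arrays). None of the 24 h changes was called on the other probe (0.45, 0.04 and 0.17). Eif4ebp2 fell by 0.32 after HPTE at 2 h, a call lost without any of 5 arrays. Eif4enif1, which carries eIF4E into the nucleus, fell by 0.31 after E2 (lost without E2 24 h replicate 3) and by 0.32 after HPTE at 24 h, but another RefSeq probe of it rose by 0.50 after E2.

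Eif5a, which helps the ribosome through stalling sequences and carries the amino acid hypusine, had one of the largest E2 responses. It read 13.62, 13.79 and 13.89 in vehicle and 15.66 and 15.68 after E2 at 24 h (3.74-fold, log2 1.90, SE 0.101, adjusted p 1.81e-09), and another RefSeq probe gave 2.25. The changes at 2 h were 0.31 (lost without any of 3 arrays), 0.54 and 0.35. At 24 h HPTE arrays read 14.18, 14.32 and 14.05 (0.42), all above vehicle, whereas BPA had a change of 0.03. Eif5a2 had no call against vehicle.

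The 4 genes that the array names Eif2c1 to Eif2c4 are the Argonautes Ago1 to Ago4, which bind small RNAs and are not initiation factors. E2 at 24 h raised none of them and lowered 2, where 26.3% and 37.6% of all probes were called higher and lower. With 4 genes, the count of decreases lay near that share. Ago4 read 10.78, 10.36 and 10.51 in vehicle and 8.77 and 8.33 after E2 at 24 h, the largest decrease among the 66 (4.01-fold lower, log2 -2.00, SE 0.164, adjusted p 7.88e-08). This probe lies on a cDNA clone, and the other Ago4 probes gave -1.88, -2.07, -1.40 and -0.59, the first 3 of them called. Ago3 rose by 0.43, 0.54 and 0.68 at 2 h. Ago2 fell from 11.60, 11.49 and 11.15 to 10.75, 10.99 and 10.62 after HPTE at 24 h (-0.62, adjusted p 0.00229).

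BPA and HPTE were given at the same dose and taken at the same times, so that these 2 bisphenol-type compounds could be set against each other directly. At 2 h limma called 0 of the 66 genes, where 0.24% of all tested probes were higher and 0.197% lower under HPTE. An unadjusted p under 0.05 was reached by 4 of the 66 genes and by 5267 of all 32456 probes. The largest differences of HPTE over BPA were -0.36 in Eif2b3 (95% interval -0.69 to -0.02, adjusted p 0.275), 0.28 in Eif2b2 (0.09 to 0.47, adjusted p 0.149) and -0.23 in Eif4ebp2 (-0.48 to 0.01, adjusted p 0.331). The 95% intervals of all 66 differences lay within a 2-fold difference in either direction, and their median width to each side was 0.195. For Aars the difference was -0.12 (interval -0.42 to 0.17) and for Eif2s2 0.06 (-0.16 to 0.28). A miss of the threshold does not show that the compounds act alike.

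At 24 h HPTE exceeded BPA in 5 genes, where 2.99% of all tested probes were called higher and 1.09% lower. These were Eif1ax (0.39, SE 0.094, adjusted p 0.0326), Eif5a (0.39, adjusted p 0.0297), Qars (0.35, adjusted p 0.0437), Eif4e2 (0.32, adjusted p 0.0325) and Eif3i (0.31, adjusted p 0.0371). In all 5, the 3 HPTE arrays lay above the 3 BPA arrays. All 5 calls were fragile. Leaving out any of 6 arrays removed Eif1ax, any of 5 Eif5a, any of 13 Qars, any of 6 Eif4e2 and any of 7 Eif3i, and the count over these settings ran from 0 to 5. Eif2b3 and Ago2, each 0.39 lower under HPTE, were not called (adjusted p 0.169 and 0.108). All 66 intervals again lay within a 2-fold difference. Within the slides that held both compounds, the 66 genes had median differences of 0.03, 0.10 and -0.02 on the 3 slides of the 2 h samples, and of 0.05 and 0.08 on the 2 slides of the 24 h samples.

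**Figure D5:**
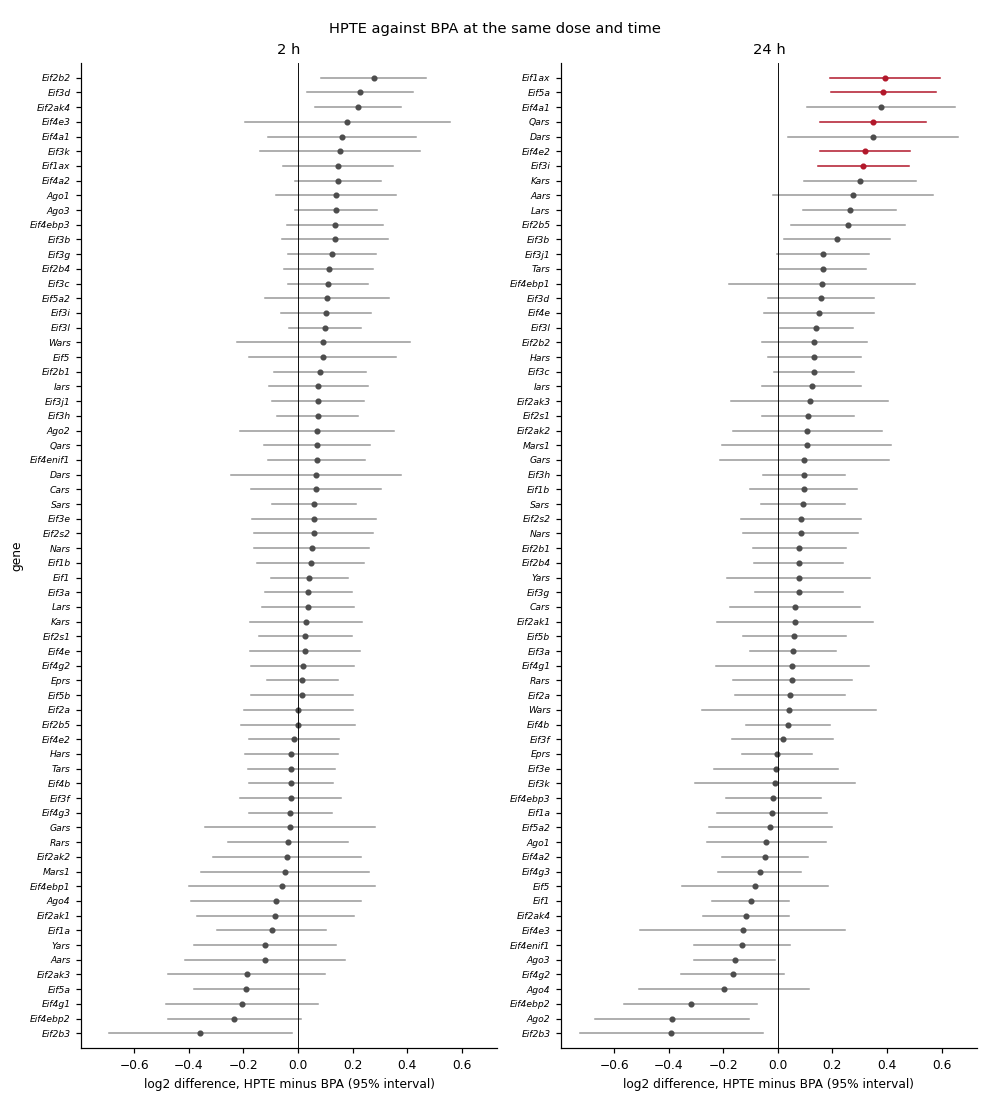
Difference of HPTE over BPA (log2, points) with its 95% interval (lines) for each of the 66 genes at 2 h and at 24 h. All intervals lie between -1 and 1, and the 5 called genes at 24 h (Eif1ax, Eif5a, Qars, Eif4e2 and Eif3i) are marked.

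Against E2, whose dose differed, the xenoestrogens differed in fewer genes at 2 h than at 24 h under the main scaling. The same held for all probes. At 2 h BPA exceeded E2 in 7 genes and was below it in 4 (all probes 7.92% and 11.1%), and HPTE exceeded E2 in 8 and was below it in 2 (8.45% and 8.18%). In total, these 2 h counts lay near the shares of all probes. Without scaling the 2 h counts were 30 and 1 for BPA and 46 and 1 for HPTE. At 24 h BPA exceeded E2 in 6 and was below it in 42 (33.2% and 24.6%), and HPTE exceeded E2 in 9 and was below it in 43 (27.3% and 21.6%). The medians at 24 h were -0.59 and -0.47, against 0.13 and 0.08 for all probes. Mars1 (-2.07 and -1.96) and Aars (-2.05 and -1.78) were the furthest below E2, and Ago4 (1.99 and 1.79) the furthest above it.

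On the brightest probes, the course from 2 h to 24 h ran in opposite directions. It does not rest on the vehicle arrays. E2 at 24 h exceeded E2 at 2 h in 38 genes and was below it in 6 (all probes 25.9% and 30.1%, median of the members 0.51). For BPA the later time was higher in 15 and lower in 28 (28.2% and 20.2%, median -0.17), and for HPTE higher in 15 and lower in 26 (29.5% and 24.6%, median -0.14). Of 58 further probes of called genes in each comparison, 12 (E2), 0 (BPA) and 3 (HPTE) were called opposite to the brightest probe. The E2 2 h group held the arrays with the highest pancreatic sums, whose part was not tested. The genes that came down most after BPA were Eif4a1 (-1.07), Aars (-1.03) and Eif4e (-1.02), and Eif4ebp1 went up by 1.07 after BPA and 1.29 after HPTE. The difference between the courses was called for 47 genes between BPA and E2 (7 higher, 40 lower, against 28.9% and 22.1% of all probes) and for 48 between HPTE and E2 (7 higher, 41 lower, against 25.4% and 20.7%). Aars differed most, by -2.86 and -2.46. Between HPTE and BPA limma called 0 (all probes 0.0462% higher and 0.0401% lower). An unadjusted p under 0.05 was reached there by 6 genes and by 4717 of all 32456 probes.

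Other genes of the translation machinery were counted by lists, which were drawn up with earlier results of these data known. Counts are set beside the shares of all probes. Of 78 cytoplasmic ribosomal protein genes, E2 at 24 h raised 24 (30.8%, near the 26.3% of all probes) and lowered 1 (1.28%, against 37.6%), with a median change of 0.08. BPA at 2 h raised 2 (2.56%, against 19.3%) and lowered 27 (34.6%, against 30.2%), with a median of -0.18, and HPTE at 24 h raised 16 (20.5%, against 14.9%) and lowered 1. Of 17 mitochondrial synthetase genes, E2 at 24 h raised 13 (76.5%, against 26.3%) and lowered 2, with a median of 0.74 (Vars2 1.54, Yars2 1.31), while BPA at 2 h raised 2 and lowered 7 (41.2%, against 30.2%) and HPTE at 2 h raised 2 and lowered 5 (29.4%, against 28.2%). All 3 scaffold genes of the synthetase complex were raised by E2 at 24 h (against 26.3% of all probes), Aimp2 by 1.43 and Eef1e1 by 1.34.

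Of 11 elongation and release factor genes, 4 rose after E2 and 4 after BPA at 2 h (36.4% each, against 11.1% and 19.3% of all probes), 5 after HPTE (45.5%, against 19.9%) and 6 after E2 at 24 h (54.5%, against 26.3%). The release factor Etf1 changed by 0.70, 1.52 and 1.38 at 2 h. Of 7 Myc and nucleolar genes, E2 raised 4 at 2 h (57.1%, against 11.1%) and 6 at 24 h (85.7%, against 26.3%). Myc itself rose after E2 (1.34) and BPA (0.62) at 2 h, and the ribosome-assembly genes Nop56 (0.88, 0.85 and 1.25) and Nop58 (0.77, 1.10 and 1.13) rose after all 3 compounds. Of 10 amino acid response genes, E2 raised 4 and lowered 1 at 2 h (40% and 10%, against 11.1% and 17.0%) and raised 7 and lowered 1 at 24 h (70% and 10%, against 26.3% and 37.6%). Their transcription factor Atf4 rose by 1.34, 2.15 and 2.21 at 2 h and by 1.24 after E2 at 24 h. Among the enzymes of serine, one-carbon and asparagine synthesis, Mthfd2 (3.40), Psat1 (2.67), Asns (1.97), Phgdh (1.49) and Shmt2 (1.39) rose after E2 at 24 h, whereas Ddit3, the stress factor CHOP, fell by 1.32. Of 11 regulators of eIF4F and eIF2, the eIF2 phosphatase subunit Ppp1r15a rose most at 2 h (2.32, 2.00 and 2.17).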

How the data were processed

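Groups were taken from the titles of the 20 samples, since treatment and time are interchanged among the other labels. The authors labelled 500 ng of RNA of each uterus with Cy3, hybridised it alone to Agilent whole-genome mouse arrays and extracted spots with Feature Extraction 9.5, per the submitters' processing notes. The published methods describe 2-colour arrays of pooled uteri for E2, BPA and HPTE, and single-colour arrays with this extraction version for estriol. The deposited scanner files give an intensity for each spot in arbitrary units, background subtracted and not scaled between arrays. They also hold flags (unit other, per the file headers) for control, outlying and background-level spots. The value table of the series held the same deposited intensity values.

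Each array's log2 intensity was scaled to its 75th percentile (1320 to 2046 over the arrays), control spots were left out, and a probe was kept where all arrays of some group had it well above background (32456 of 41174). By array, 72.7% to 81.3% of probes met that level. All 20 arrays entered a fit of 7 group means in limma 3.58.1 (R 4.3.3), with two-sided moderated tests and Benjamini-Hochberg adjustment over all tested probes of a contrast. The script was tested on simulated data. The number of arrays limits the precision. Members were matched to symbols by accession (60), synonym (4) or name (2). The members and lists were chosen with earlier results of these data known.

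The genes named were a fixed list of 18, the members with the largest called and non-overlapping changes of each contrast with vehicle, those with the largest or called differences between HPTE and BPA, and those with calls of opposite sign, 35 in all. Other genes are examples of their role group or list, chosen after their values were seen. Alternatives were another background correction, scaling, filter, probe choice, threshold and fit, slide and replicate blocks, and the removal of single arrays and of arrays that stood apart. The 20 arrays lay on 6 slides, with BPA 24 h replicate 3 and HPTE 24 h replicate 2 on a slide scanned on another day.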

Additional observations from a re-analysis of the deposited data

Results flagged for a closer look

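The course over time was not the same for E2 as for the xenoestrogens, by a test of the difference itself. Between BPA and E2 the difference was called for 47 of the 66 genes, with Aars furthest apart (-2.86 on the log2 scale), and between HPTE and E2 for 48, with Aars at -2.46. The doses of the compounds compared differed, and the E2 2 h group held the arrays with the highest pancreatic sums.

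Pancreatic transcripts, which are not among the genes compared here, were above the highest vehicle sum of 9.47 on 4 E2 arrays. Every comparison with E2 includes some of these arrays, and the part of the pancreatic transcripts was not tested. The log2 sums of the pancreatic transcripts were 21.9 on E2 2 h replicate 2, 18.18 on E2 2 h replicate 3, 13.08 on E2 24 h replicate 2 and 14.5 on E2 24 h replicate 3.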

How the results depend on the processing

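Of the counts of members called under 40 alternatives, 508 stayed within 1.5 times the main count and 92 did not. Leaving out single arrays gave ranges of 13 to 21 (E2 2 h), 45 to 54 (E2 24 h), 33 to 41 (BPA 2 h), 5 to 10 (BPA 24 h), 34 to 41 (HPTE 2 h) and 18 to 23 (HPTE 24 h) against vehicle, 0 to 1 and 0 to 5 for HPTE against BPA at 2 h and 24 h, 4 to 13 and 43 to 50 for BPA against E2, 6 to 13 and 38 to 54 for HPTE against E2, and 40 to 48, 36 to 44 and 35 to 42 for 24 h against 2 h of E2, BPA and HPTE. Counts that a single array shifted past 1.5 times were those for BPA 24 h (vehicle replicate 1 to 6, BPA 24 h replicates 1 and 3 to 5 and 6), BPA against E2 at 2 h (E2 replicates 1 and 3 to 5 and 7, BPA replicates 1 and 2 to 6 and 4), HPTE against E2 at 2 h (E2 replicate 1 or HPTE replicate 2 to 6), HPTE against BPA at 24 h (any array of either group to 0 or 1, HPTE 2 h replicate 1 to 3) and HPTE against BPA at 2 h (BPA replicate 2 or 3 to 1).

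Asking for a 2-fold change as well left 0 (E2 2 h), 22 (E2 24 h), 1 (BPA 2 h), 0 (BPA 24 h), 2 (HPTE 2 h) and 0 (HPTE 24 h) against vehicle, 0 for BPA and HPTE against E2 at 2 h and HPTE against BPA at 24 h, 21 and 17 against E2 at 24 h, and 16, 5 and 1 for 24 h against 2 h of E2, BPA and HPTE. Scaling to the spike-in probes left 0, 30, 6, 0, 8 and 2 against vehicle in the same order, 0 for the same 3 comparisons, 30 and 31 against E2 at 24 h, and 25 and 12 for 24 h against 2 h of E2 and BPA. Without scaling the counts were 10 (E2 2 h), 1 (BPA 24 h), 14 (HPTE 24 h), 31 and 47 (BPA and HPTE against E2 at 2 h) and 0 (HPTE against BPA at 24 h). With an unadjusted p under 0.001 they were 10 (E2 2 h), 21 (BPA 2 h), 6 (BPA 24 h), 22 (HPTE 2 h), 12 (HPTE 24 h), 3 and 5 (against E2 at 2 h), 3 (HPTE against BPA at 24 h) and 28 (BPA 24 h against 2 h). Fitting only the groups compared gave 9 (E2 2 h), 23 (BPA 2 h), 3 (BPA 24 h), 0 and 2 (against E2 at 2 h) and 0 (HPTE against BPA at 24 h). A fixed slide block gave 4 (BPA 24 h), 12 (HPTE 24 h), 3 and 5 (against E2 at 2 h) and 0 (HPTE against BPA at 24 h). Array weights gave 16 (BPA 24 h), 21 (HPTE against E2 at 2 h) and 14 (HPTE against BPA at 24 h). No filter gave 7 (BPA against E2 at 2 h), and a trended robust prior 17 (HPTE against E2 at 2 h). For HPTE against BPA at 24 h, 3 were called with the dimmest probe or the mean of probes and 1 with no filter, normexp or quantile scaling. Without BPA 2 h replicates 1 and 2, an alternative added after seeing the data like the next 2, the counts were 19 (BPA 2 h), 2 (HPTE against BPA at 2 h), 1 (BPA against E2 at 2 h) and 26 (BPA 24 h against 2 h). Without E2 2 h replicates 2 and 3 they were 10 (E2 2 h), 6 and 5 (against E2 at 2 h) and 2 (HPTE against BPA at 24 h), and without the slide of the later day 5 (BPA 24 h) and 0 (HPTE against BPA at 24 h).

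Replicate numbers did not pair the samples (residual correlations of same-numbered arrays from -0.36 to 0.33, median -0.049). The fit with the replicate number as a block called 1 gene for HPTE against BPA at 24 h and moved no other count by over 1.5 times.

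The split of higher and lower calls moved with the scaling. With normexp and quantile scaling it was 17 and 5, and 15 and 4, for E2 2 h, 9 and 5, and 7 and 5, for BPA 24 h, 12 and 14, and 14 and 11, for HPTE 24 h, and 10 and 3 under both for BPA against E2 at 2 h. At 24 h it was 11 and 36, and 12 and 36, for BPA against E2, and 0 and 1 under both for HPTE against BPA. Without scaling it was 25 and 2 for BPA 2 h, 35 and 2 for HPTE 2 h, 30 and 1 and 46 and 1 for BPA and HPTE against E2 at 2 h, 2 and 45 for HPTE against E2 at 24 h, and 5 and 30 and 5 and 37 for 24 h against 2 h of BPA and HPTE. With spike-in scaling it was 0 and 2 for HPTE 24 h, 1 and 30 for HPTE against E2 at 24 h, and 1 and 11 and 1 and 29 for 24 h against 2 h of BPA and HPTE. The median of all probes shifted by -0.23 (E2 2 h) and 0.37 (HPTE against E2 at 2 h) without scaling, by -0.33 (HPTE 24 h) and 0.21 (HPTE 2 h) with spike-ins, and by 0.15 (E2 24 h) with quantile scaling.

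Values of named genes changed sign in 35 cases in which the main value, or the value under the alternative, was called. With the dimmest probe these were Eif2a 0.046, Eif4e2 -0.35 and Eif5 0.52 (E2 2 h), Eif2a -0.33, Eif2s2 -0.78, Eif4e -0.26, Eif4e2 -0.83, Iars -0.30 and Qars -0.55 (E2 24 h), Eif2a 0.090, Eif5 0.50 and Qars 0.071 (BPA 2 h), Eif2a -0.12, Eif2s2 -0.88, Eif3b 0.075, Eif4e2 -0.33 and Qars -0.081 (BPA 24 h), Eif2a 0.20 and Eif4enif1 0.10 (HPTE 2 h), Aars -0.48, Eif1ax -0.17, Eif2a -0.075, Eif2s2 -0.84, Eif4e2 -0.013, Iars -0.45 and Qars -0.079 (HPTE 24 h), and Eif2s2 -0.32 and Eif4e -0.095 (BPA against E2 at 2 h). With the mean of probes, Eif2a was -0.026 after E2 at 24 h, and Aars -0.43 and Eif2s2 -0.10 after HPTE at 24 h. Eif2b3 after E2 at 24 h was 0.047 with normexp and 0.056 with quantile scaling, and with spike-ins Sars after HPTE at 2 h was 0.028 and Eif2s2 after HPTE at 24 h -0.0097. The causes were not tested.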

Other observations

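Probes designed on RIKEN cDNA clones behaved differently from the RefSeq probes of the same genes. These were looked at after their values were seen, and their part in the results was not tested. Beside the brightest probes, of which those of Eif2b3 and Ago4 lie on such clones, there were 21 tested clone probes for 17 of the genes, with a median level of 7.92 on the log2 scale, dimmer than the brightest probe of each gene. At 2 h 10 were called higher and 3 lower after E2, 11 and 1 after BPA and 11 and 2 after HPTE, whereas at 24 h 1 was higher and 10 lower after E2, 0 and 5 after BPA and 0 and 12 after HPTE. Among all 6804 tested clone probes of the array, 9.58% were higher and 26.6% lower after E2 at 2 h, and 10.2% were higher and 59.9% lower after E2 at 24 h. After BPA these shares were 14.1% and 39.8% at 2 h and 2.04% and 10.1% at 24 h, and after HPTE 15.5% and 38.8% at 2 h and 5.56% and 30.9% at 24 h.

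All 3 clone probes of Aars were called higher at 2 h under all 3 compounds, by 0.91, 1.53 and 1.20 after E2, 2.08, 3.04 and 2.42 after BPA and 2.14, 2.85 and 2.18 after HPTE, where the brightest Aars probe changed by 0.04 after E2. At 24 h they changed by -0.09, 0.25 and 0.33 after E2, none called, against 1.86 on the brightest probe. The clone probe of Eif2s2 changed by 1.60, 1.28 and 1.69 at 2 h, and its later changes were -0.78, -0.88 and -0.84. That of Eif4e changed by 1.16, 1.07 and 1.29 at 2 h and by -0.26, -0.60 and -0.71 at 24 h. Clone probes of Iars, Eif5 and Hars had the same signs, up at 2 h and down at 24 h under all 3 compounds. The 1 clone probe called higher after E2 at 24 h was that of Eif1a (1.28).

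Counted over all 87 tested further probes of the genes, 75 belonged to genes whose brightest probe was called after E2 at 24 h. Of these, 44 were called in the same direction, 9 in the opposite direction and 22 were not called. The 9 were probes of Dars, Eif2ak1, Eif2s2, Eif4e2, Eif4enif1, Eif5b, Hars, Iars and Qars.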
